A study of Homo sapiens with 10 samples.

Results

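The cadherin group studied here comprised 51 genes, of the 14232 genes that had a row of their own in a table of 22011 rows. They were selected by a rule on gene symbols, set with earlier results of these data known, and comprised 17 classical cadherins, 22 protocadherins, 8 catenins and catenin-related genes, and 4 other numbered cadherins. Each gene was read from the row annotated to it and to no other gene, and each of the 51 had exactly 1 such row. CDH4, CDH13, PCDH19 and further family members without such a row were not analysed here.

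Expression was measured in SH-SY5Y, an established human neuroblastoma cell line, on 10 Affymetrix exon arrays. The 5 paraquat arrays (numbers 8, 12, 14, 18 and 20 of the titles) came from cells given paraquat, a redox-cycling herbicide that generates superoxide. The 5 control arrays (7, 11, 13, 17 and 19) came from untreated cells of the same line. Dose and duration of the treatment could not be taken from the labels, and the line stands for 1 tumour. Values are log2 expression, so a difference of 1 is a 2-fold change, and a gene counted as changed where limma gave an adjusted p under 0.05 over all rows. The labels do not state whether replicate arrays stem from separate cultures, and the p-values then reflect array-to-array spread that may be purely technical.

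Cadherins are calcium-dependent adhesion proteins whose outer domains pair between neighbouring cells. The tails of classical cadherins hold β-catenin and p120-type catenins, and α-catenin ties the complex to actin. Protocadherins lack that catenin-binding tail, and in neurons the clustered ones give cells a surface identity while several non-clustered ones guide axons and synapses. β-catenin that is not held at junctions can enter the nucleus and serve TCF factors as a coactivator of Wnt target genes.

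Of the 51 genes, 5 rose and 8 fell after paraquat, so that 25.5% were called, against 20% of all rows. Over all rows 8.51% rose and 11.5% fell. The median log2 change was -0.015 over the 51 genes and 0.0047 over all rows, and the median size of the change regardless of sign was 0.14 over the 51 genes and 0.18 over all rows. The genes that rose were CDH8, CDH2, CDH11, PCDH10 and PCDHB7. Those that fell were CDH20, CDH24, PCDH20, PCDHB9, PCDHB10, PCDHB14, CTNNA2 and CTNNBIP1. The changes of the 38 genes that did not pass lay between -0.42 and 0.39. With the median of each array subtracted the split was 7 up and 7 down, and with quantile normalization 6 up and 7 down. The groups of arrays did not overlap for 7 of the 51 genes, 4 higher and 3 lower after paraquat, where 16.2% of all rows did not overlap.

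**Figure D1:**
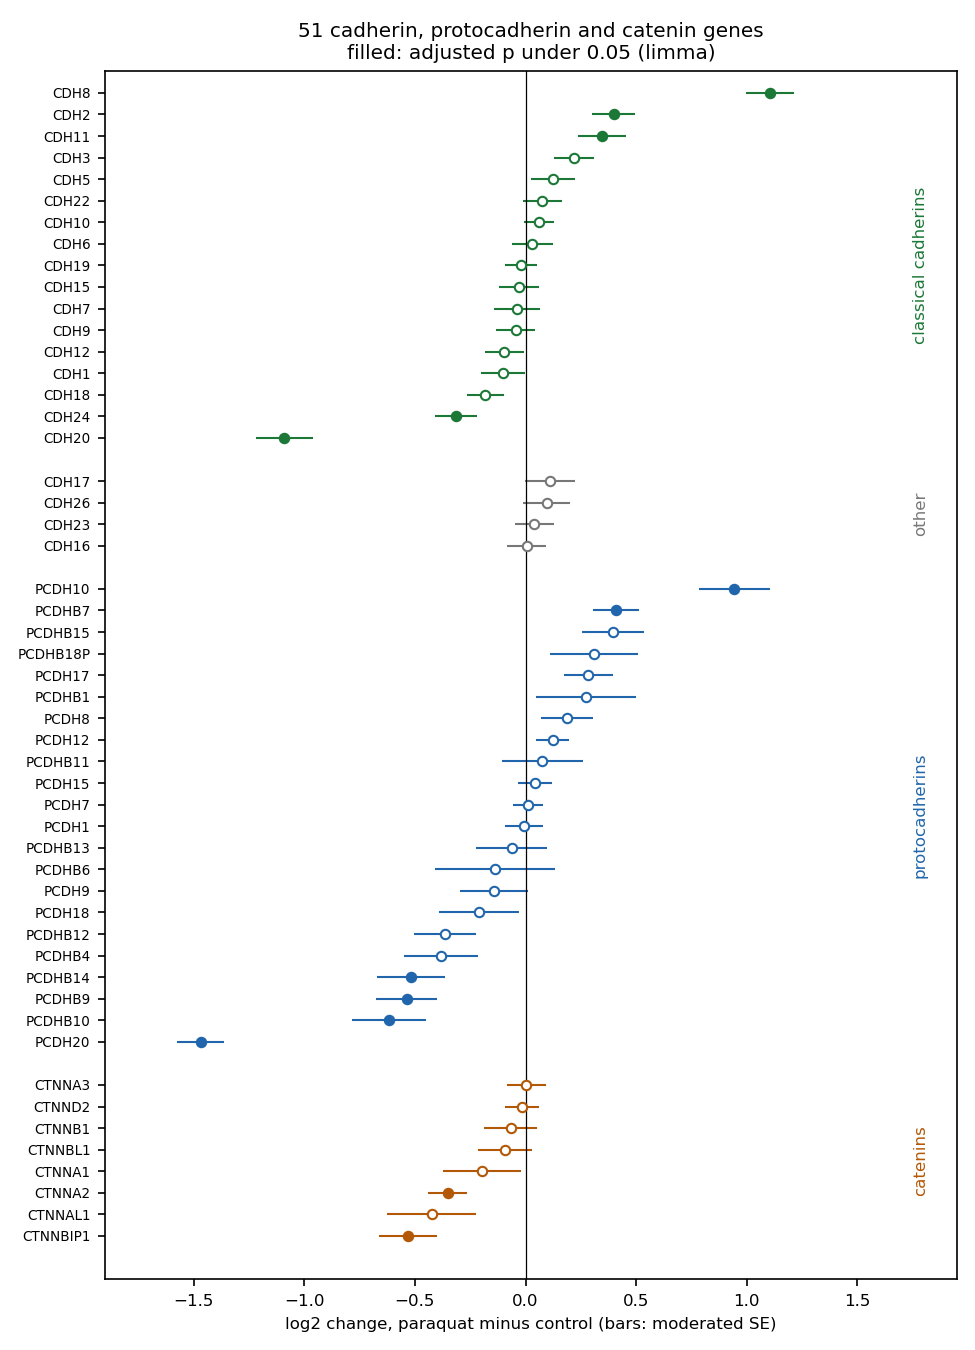
Log2 change, paraquat minus control, of each of the 51 genes (horizontal axis), grouped by class, with bars of 1 moderated standard error and filled points for an adjusted p under 0.05. CDH8 (1.10) and PCDH10 (0.94) lie farthest to the right, PCDH20 (-1.47) and CDH20 (-1.09) farthest to the left, and 38 genes are open circles.

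Called changes lay outside the dimmest 20% of all rows, though not all were bright. CDH8, PCDH20, PCDHB7, CDH20 and CTNNA2 had means below the median row, at percentiles 28.2, 30.1, 38.1, 41.9 and 42.3. Of the 51 genes, 14 had a mean in the dimmest 20% of all rows (at or under 4.18), and 0 of these 14 passed limma's test (1 had an unadjusted p under 0.05), with 0 differing without overlap. In that 20% as a whole 3.6% of rows were called. Without detection calls, a dim row may hold background only. The mean of PCDH20 after paraquat and that of CDH8 in controls, 4.49 each, lay not far above 4.18. Among the 37 brighter genes 13 were called, or 35.1%, against 24.1% of all brighter rows.

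**Figure D2:**
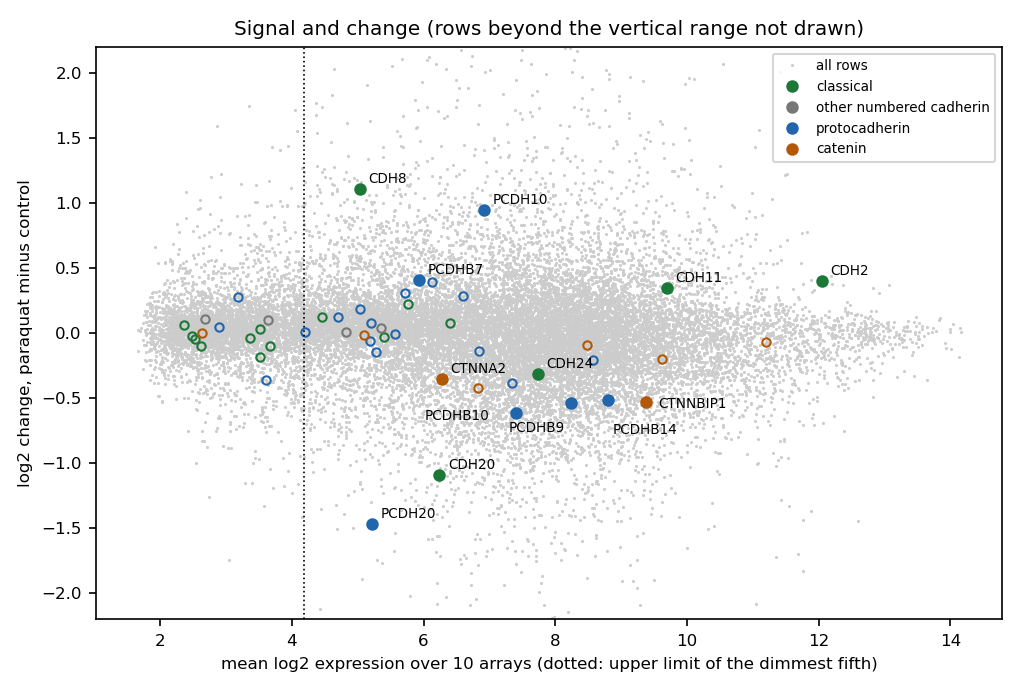
Mean log2 expression over the 10 arrays (horizontal axis) against log2 change, paraquat minus control (vertical axis), for all rows (grey) and the 51 genes (coloured by class, filled where the adjusted p was under 0.05). No filled point lies left of the dotted line at 4.18, the upper limit of the dimmest 20%.

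Among the classical cadherins 3 of 17 rose and 2 fell, and the median change was -0.02. With array medians subtracted, or with quantile normalization, 3 rose and 1 fell. Type I cadherins, which join like cells into sheets or strands, had 4 measured genes. CDH2 encodes N-cadherin, the main classical cadherin of neurons and of many mesenchymal cells. It read 12.27, 12.20, 12.38, 12.18 and 12.20 in paraquat arrays 8, 12, 14, 18 and 20, against 11.75, 12.10, 11.94, 11.78 and 11.68 in control arrays 7, 11, 13, 17 and 19. All 5 paraquat arrays were above every control, with control 11 nearest to them. The mean was 12.25 ± 0.08 after paraquat and 11.85 ± 0.17 in controls (SD, n = 5 each), a log2 change of 0.40 ± 0.10 (SE, adjusted p = 0.0127 in limma), or 1.32-fold.

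Among the other type I genes CDH3 (P-cadherin, of basal epithelium) had a log2 change of 0.22 with an adjusted p of 0.124 in limma. CDH15 (M-cadherin, of muscle) had -0.03 with 0.875. CDH1, the E-cadherin of epithelia, was added here after its values were seen. It lay in the dimmest 20% in both groups, with a mean of 3.62 ± 0.11 after paraquat and 3.72 ± 0.18 in controls (SD, n = 5 each). Its log2 change of -0.10 had an adjusted p of 0.563 in limma, and the 2 groups of arrays overlapped.

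Type II cadherins, many of which mark subsets of neurons, had 13 measured genes, of which 2 rose and 2 fell. CDH8, a type II cadherin of neural tissue, read 5.67, 5.77, 5.79, 5.25 and 5.48 in the paraquat arrays, against 4.48, 4.56, 4.44, 4.55 and 4.42 in the controls, in the array order given for CDH2. The lowest paraquat array, 18, was still above every control, and the controls lay close together. CDH8 rose by 1.10 ± 0.11 on the log2 scale (SE, adjusted p = 4.97e-05 in limma), or 2.15-fold, with means of 5.59 ± 0.23 and 4.49 ± 0.06 (SD, n = 5 each) in paraquat and control arrays.

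CDH20 moved the other way by a similar amount. This type II cadherin read 6.06, 5.58, 5.70, 5.68 and 5.46 in the paraquat arrays, against 6.70, 6.58, 6.74, 7.07 and 6.85 in the controls. Every paraquat array was below every control, with paraquat 8 the closest. CDH20 fell to 5.70 ± 0.23 after paraquat, against 6.79 ± 0.19 in controls (SD, n = 5 each), a log2 change of -1.09 ± 0.13 (SE, adjusted p = 0.000158 in limma), or 2.13-fold lower.

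CDH11, a cadherin of mesenchymal cells and osteoblasts, read 9.997, 9.78, 10.09, 9.77 and 9.69 in the paraquat arrays, against 9.38, 9.59, 9.74, 9.53 and 9.36 in the controls. The groups overlapped, since control 13 exceeded paraquat 20. The log2 change was 0.34 ± 0.11 (SE, adjusted p = 0.0446 in limma), or 1.27-fold. The call was lost without any 1 of 7 arrays (controls 7, 17 and 19, paraquat 8, 12, 14 and 18), with adjusted p between 0.0575 and 0.101, without control 11 and paraquat 12 together (0.0599) and with array weights (0.0670).

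CDH24, which binds catenins as other type II cadherins do, read 7.65, 7.45, 7.63, 7.61 and 7.56 in the paraquat arrays, against 7.87, 7.63, 8.11, 7.90 and 7.96 in the controls. Control 11 was the lowest control and lay within the paraquat range. The log2 change was -0.31 ± 0.10 (SE, adjusted p = 0.0410 in limma), or 1.24-fold lower. This call was lost without any 1 array other than control 11 (adjusted p between 0.0543 and 0.0963), with array medians subtracted (0.0950) and with quantile normalization (0.107).

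Of the type II genes that did not pass, the brightest were CDH22, with a log2 change of 0.08 (adjusted p = 0.644 in limma), and CDH5, the VE-cadherin of endothelium, with 0.12 (adjusted p = 0.464). The 4 numbered cadherins outside the classical class gave 0 calls in limma (0 also at an unadjusted p under 0.05) and a median change of 0.07. CDH23, a component of the tip links of hair cells, had a log2 change of 0.04 (adjusted p = 0.830) and CDH16, the kidney cadherin, one of 0.0052 (adjusted p = 0.980).

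**Figure D3:**
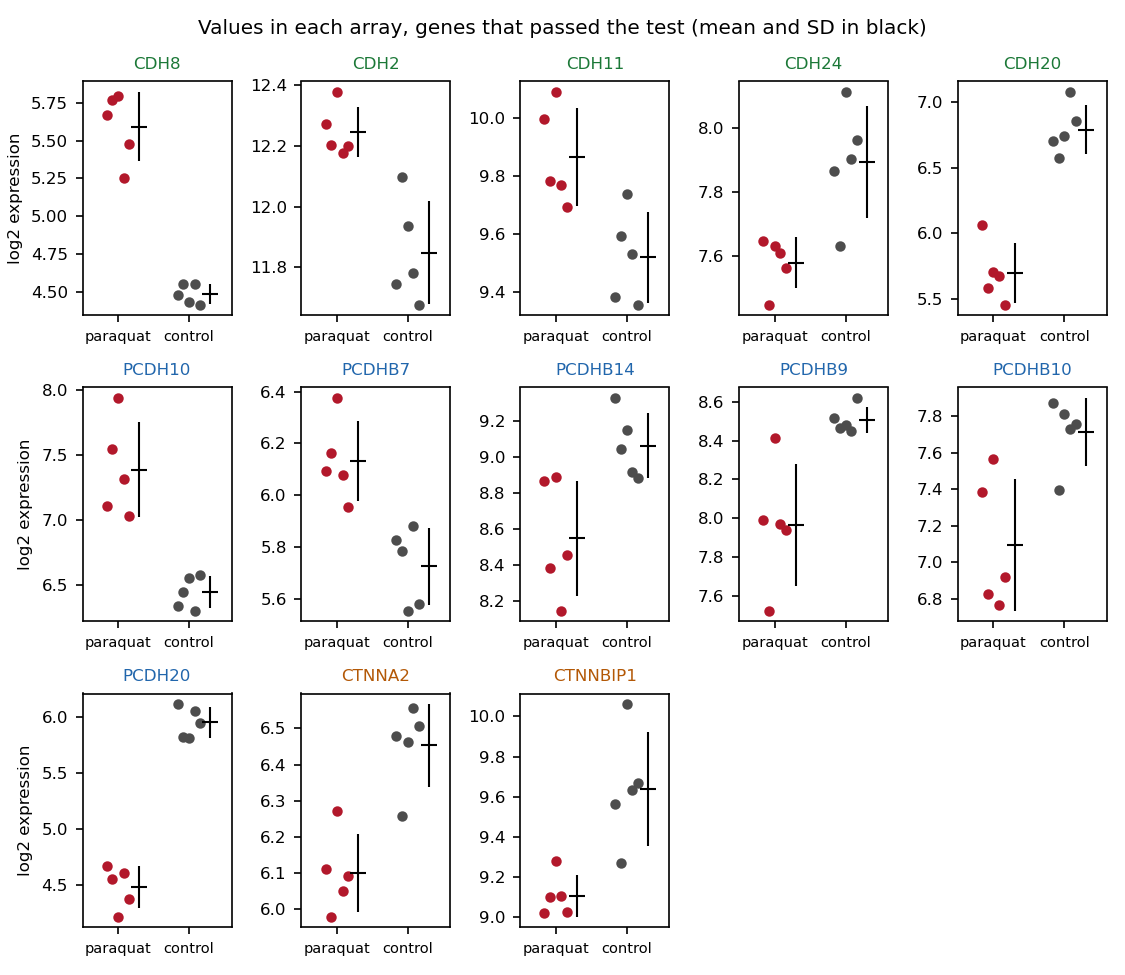
Log2 expression in each array (points; paraquat left, control right) of the 13 genes that passed the test, with mean and SD in black and 1 panel per gene, each with its own vertical range that does not start at 0. Paraquat and control points are separated for CDH8, CDH2, CDH20, PCDH10, PCDHB7, PCDHB9 and PCDH20, and they overlap for the other 6.

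Among the 22 protocadherins 2 rose and 4 fell, with a median change of 0.0016. With array medians subtracted 4 rose and 4 fell, and with quantile normalization 3 rose and 4 fell. The median size of change was 0.28, against 0.10 for the classical cadherins, and the difference between the classes was not tested. The classes also differed in signal and precision. In the dimmest 20% lay 3 of 22 protocadherins and 8 of 17 classical cadherins, and the median standard errors were 0.147 and 0.092. The called shares were 27.3% and 29.4%, against 20% of all rows. The 10 non-clustered protocadherins, which have their own loci, gave 1 call in each direction and a median of 0.03.

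PCDH20, a non-clustered protocadherin of neural tissue, had the largest change of the 51 genes. It read 4.67, 4.55, 4.22, 4.61 and 4.38 in paraquat arrays 8, 12, 14, 18 and 20, against 6.12, 5.83, 5.82, 6.06 and 5.95 in control arrays 7, 11, 13, 17 and 19. The groups were far apart, with more than 1 log2 unit between the highest paraquat array and the lowest control. PCDH20 fell to 4.49 ± 0.18 after paraquat, against 5.95 ± 0.13 in controls (SD, n = 5 each), a log2 change of -1.47 ± 0.11 (SE, adjusted p = 6.05e-06 in limma), or 2.77-fold lower.

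PCDH10 is a delta-2 protocadherin, a class that in mice recruits the WAVE actin regulators through its tail. It read 7.11, 7.55, 7.94, 7.32 and 7.04 in the paraquat arrays, against 6.34, 6.45, 6.56, 6.31 and 6.58 in the controls. Every paraquat array was above every control, and paraquat 14 stood highest. PCDH10 averaged 7.39 ± 0.37 after paraquat and 6.45 ± 0.12 in controls (SD, n = 5 each), a log2 change of 0.94 ± 0.16 (SE, adjusted p = 0.00171 in limma), or 1.92-fold.

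PCDH17, of the same delta-2 class, read 6.68, 6.56, 6.86, 6.805 and 6.85 in the paraquat arrays, against 6.37, 6.72, 6.59, 6.44 and 6.20 in the controls. Controls 11 and 13 lay within the paraquat range. Its log2 change of 0.28 did not pass (adjusted p = 0.101 in limma). It passed without control 11 (0.0380), without control 11 and paraquat 12 together (0.0224), with array medians subtracted (0.0406), with quantile normalization (0.0459) and with array weights (0.0188). The third delta-2 gene named here, PCDH18, had a log2 change of -0.21 (adjusted p = 0.5004 in limma).

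Of the delta-1 protocadherins PCDH9 had a log2 change of -0.14 (adjusted p = 0.607 in limma) and PCDH1 of -0.0071 (0.972). PCDH12, known from endothelium, had a log2 change of 0.12 (0.321). PCDH15, the tip-link partner of CDH23, had a log2 change of 0.04 (0.770).

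The clustered β protocadherins are single-exon genes in a row on chromosome 5, each with its own promoter. In neurons each cell uses a few of them, and CTCF and cohesin, bound at a conserved promoter element and at distant enhancers, take part in that choice. The 12 measured rows were 11 genes and the pseudogene PCDHB18P. They gave 1 call up and 3 down and a median change of -0.10. That median was 0.024 without paraquat 12 and -0.27 without paraquat 14, the extremes when 1 array was left out. The genes are close to identical over long stretches, so the value of a single member is uncertain.

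The promoters of the 4 called β genes are printed here because they carry the same element under opposite changes. The element was searched as the letters GGTGGCGCT, on both strands, in RefSeq promoter windows of 300 bases (250 before to 50 after each start, GRCh38.p14). It was present in 176 of 35116 such windows over all genes (0.501%). It was in 13 of the 14 PCDHB windows of that collection, and 8 of the 9 measured β genes with a window held it. Capitals mark the element in 100 bases around it, all on the plus strand.
PCDHB7 (rose; chr5:141172517-141172616): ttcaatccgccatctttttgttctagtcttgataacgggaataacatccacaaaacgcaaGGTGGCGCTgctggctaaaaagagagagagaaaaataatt
PCDHB9 (fell; chr5:141187025-141187124): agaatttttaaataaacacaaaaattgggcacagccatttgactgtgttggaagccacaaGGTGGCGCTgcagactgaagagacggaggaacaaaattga
PCDHB10 (fell; chr5:141192250-141192349): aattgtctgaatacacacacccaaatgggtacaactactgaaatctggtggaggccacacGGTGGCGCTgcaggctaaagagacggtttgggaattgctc
PCDHB14 (fell; chr5:141223214-141223313): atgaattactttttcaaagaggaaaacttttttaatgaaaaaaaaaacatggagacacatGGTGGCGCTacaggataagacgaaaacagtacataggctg
The element began 67 bases before the annotated start in PCDHB7, 76 in PCDHB9, 43 in PCDHB10 and 69 in PCDHB14. It was also found in PCDHB4, PCDHB12, PCDHB13 and PCDHB15, which did not pass the test. A match of letters is a description and does not show a bound site.

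PCDHB7 read 6.09, 6.16, 6.37, 6.08 and 5.95 in the paraquat arrays, against 5.83, 5.79, 5.55, 5.88 and 5.58 in the controls. Every paraquat array was above every control, by a narrow margin between paraquat 20 and control 17. The mean was 6.13 ± 0.15 after paraquat and 5.73 ± 0.15 in controls (SD, n = 5 each), a log2 change of 0.41 ± 0.10 (SE, adjusted p = 0.0167 in limma), or 1.33-fold.

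PCDHB9, which lies between PCDHB7 and PCDHB10 in the cluster, read 7.99, 7.52, 8.41, 7.97 and 7.94 in the paraquat arrays, against 8.51, 8.46, 8.48, 8.45 and 8.62 in the controls. Every paraquat array was below every control, with paraquat 14 close to the lowest of them. The controls were tight, and the paraquat arrays spread widely. PCDHB9 had a log2 change of -0.54 ± 0.14 (SE, adjusted p = 0.0175 in limma), or 1.45-fold lower.

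PCDHB10 read 7.39, 6.83, 7.57, 6.77 and 6.92 in the paraquat arrays, against 7.87, 7.39, 7.81, 7.73 and 7.76 in the controls. Paraquat 8 and 14 were close to the controls and paraquat 14 exceeded control 11. The log2 change was -0.62 ± 0.17 (SE, adjusted p = 0.0223 in limma), or 1.53-fold lower. The call was lost without any 1 of controls 7 and 13 and paraquat 12, 18 and 20 (adjusted p between 0.0518 and 0.0596).

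PCDHB14 read 8.87, 8.38, 8.89, 8.14 and 8.46 in the paraquat arrays, against 9.33, 9.04, 9.15, 8.92 and 8.88 in the controls. Paraquat 8 and 14 again lay highest of their group, and paraquat 14 just exceeded control 19. The log2 change was -0.52 ± 0.15 (SE, adjusted p = 0.0360 in limma), or 1.43-fold lower. The call was lost without any 1 of controls 7, 11, 13 and 17 and paraquat 12, 18 and 20 (adjusted p between 0.0513 and 0.0857), and without control 11 and paraquat 12 together (0.0985).

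Of the other β rows PCDHB4 had a log2 change of -0.38 (adjusted p = 0.147 in limma). It passed without paraquat 14 (0.0187) and with array weights (0.0222). PCDHB6 had a log2 change of -0.14 (0.797) and PCDHB18P one of 0.31 (0.348). The PCDHB18P change was 0.11 without control 11, which read 4.78, against 5.59 to 5.97 in the other controls. PCDHB15, named after its values were seen, had a log2 change of 0.39 (0.0743) and passed with array medians subtracted (0.0353) and without control 7 (0.0266). PCDHB12, likewise named afterwards, had a log2 change of -0.36 (0.0966) and passed without paraquat 14 (0.0354).

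The paraquat arrays were spread more widely than the controls over the β cluster. The median SD over the 12 β rows was 0.34 in paraquat arrays and 0.18 in controls, and the paraquat SD was the larger in 10 of 12 rows. Over the other 39 genes the median SD was 0.13 in paraquat arrays and 0.12 in controls, with the paraquat SD larger in 22, and over all rows it was 0.20 in either group. Paraquat 14 was the highest paraquat array in 8 of the 12 β rows and paraquat 8 in 3, while paraquat 12, 18 and 20 were the lowest in 5, 3 and 3. The mean over the 12 rows was 6.27, 5.80, 6.38, 5.90 and 6.06 in paraquat arrays 8, 12, 14, 18 and 20, and 6.39, 6.02, 6.21, 6.12 and 6.16 in control arrays 7, 11, 13, 17 and 19. These differences in spread were not tested.

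**Figure D4:**
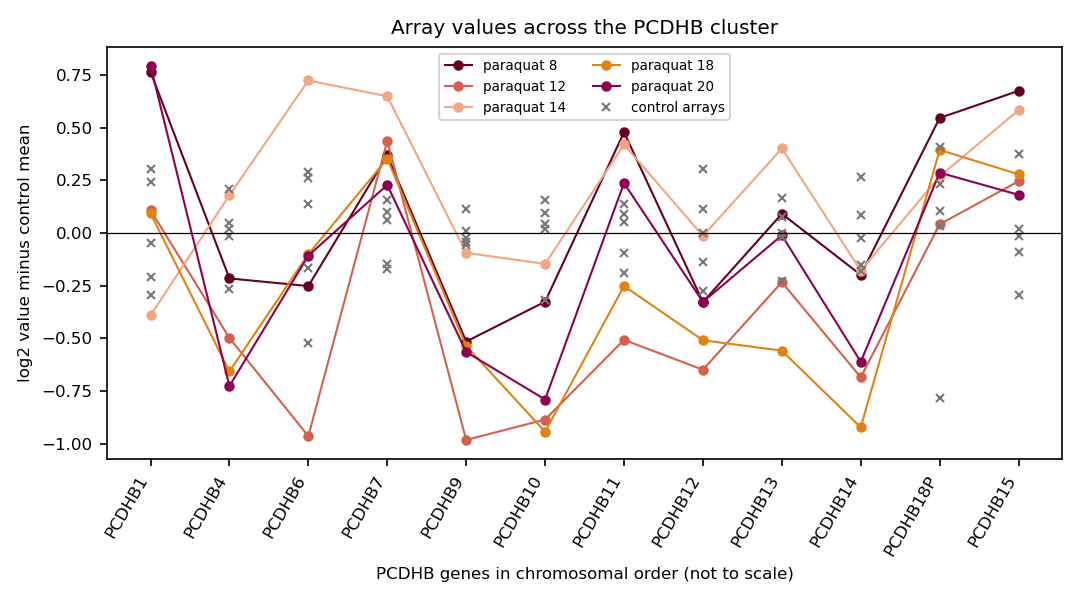
Log2 value of each array minus the control mean (vertical axis) for the 12 β protocadherin rows in chromosomal order (horizontal axis, not to scale), with 1 line per paraquat array and crosses for the controls. All 5 paraquat lines lie above 0 at PCDHB7 and below 0 at PCDHB9, PCDHB10 and PCDHB14. They also lie above 0 at PCDHB15 and PCDHB18P and below 0 at PCDHB12, which did not pass the test. The line of paraquat 14 is the highest in 8 of 12 rows.

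Rows annotated to several related genes, 11 in number, were kept out of the counts and were looked at after their values were known. Only a row of PCDHB3 and PCDHB2 and a row of LRRTM2 and CTNNA1 passed, where 20% of all rows were called. Only the first of them was without overlap, where 16.2% of all rows did not overlap. A row shared by PCDHB3 and PCDHB2 fell to 7.82 ± 0.30 after paraquat, against 8.43 ± 0.12 in controls (SD, n = 5 each), without overlap (log2 change -0.61, adjusted p = 0.00886 in limma). A second row of the same pair had a log2 change of -0.02 (adjusted p = 0.920). The row of PCDHB5, PCDHB19P, PCDHB9 and PCDHB14 had a log2 change of 0.33 (adjusted p = 0.134 in limma). That of PCDHB17P, PCDHB14, PCDHB11 and PCDHB12 had 0.26 (0.178). The row of PCDHB8 and PCDHB13 had 0.07 (0.900) and that of PCDHB16 and PCDHB2 had 0.02 (0.936). The row shared by the α protocadherins had a log2 change of -0.09 (adjusted p = 0.548). CTNND1, p120-catenin itself, had only a row shared with TMX2. That row had a mean of 9.43 and a log2 change of -0.22 (adjusted p = 0.496 in limma). A row shared by LRRTM2 and CTNNA1 rose by 1.01 on the log2 scale (adjusted p = 0.00475), while the row of CTNNA1 alone did not pass. LRRTM2, a synaptic adhesion gene, lies within an intron of CTNNA1, and the 2 cannot be separated in that shared row.

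Among the 8 catenins and catenin-related genes 0 rose (0 also at an unadjusted p under 0.05) and 2 fell. The called share was 25%, against 20% of all rows. Of the 8 estimates 7 were negative (6 with array medians subtracted), with a median of -0.14. Over all rows 49.1% were negative (41.4% with array medians subtracted). The estimates of CTNNB1, CTNNBL1 and CTNND2 were smaller in size than their standard errors. CTNNB1, β-catenin itself, read 11.08, 11.30, 11.40, 10.88 and 11.19 in the paraquat arrays, against 11.31, 11.51, 11.17, 11.08 and 11.11 in the controls. The groups overlapped through nearly their whole range, and the log2 change of -0.07 had an adjusted p of 0.775 in limma. The standard error of that change was 0.12.

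CTNNA2 encodes the α-catenin of neurons, which links N-cadherin to actin. It read 6.11, 5.98, 6.27, 6.05 and 6.09 in the paraquat arrays, against 6.48, 6.26, 6.46, 6.56 and 6.51 in the controls. Only control 11 and paraquat 14 overlapped. CTNNA2 fell to 6.10 ± 0.11 after paraquat, against 6.45 ± 0.11 in controls (SD, n = 5 each), a log2 change of -0.35 ± 0.09 (SE, adjusted p = 0.0148 in limma), or 1.28-fold lower.

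CTNNBIP1, also called ICAT, binds β-catenin and blocks its contact with TCF factors. It read 9.02, 9.10, 9.28, 9.10 and 9.03 in the paraquat arrays, against 9.56, 9.27, 10.06, 9.63 and 9.67 in the controls. Control 11, the lowest of its group, lay just under paraquat 14, and control 13 stood highest. The mean was 9.11 ± 0.10 after paraquat and 9.64 ± 0.28 in controls (SD, n = 5 each), a log2 change of -0.53 ± 0.13 (SE, adjusted p = 0.0144 in limma), or 1.45-fold lower.

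The other catenins did not pass over the 10 arrays. CTNNA1, the α-catenin found in most tissues, had a log2 change of -0.20 (adjusted p = 0.514 in limma), which was -0.050 without control 19 and -0.095 without paraquat 8. CTNNAL1, the α-catenin-like catulin, had a log2 change of -0.42 (0.179), which passed without control 11 and paraquat 12 together (-0.37, 0.0463). CTNNBL1, a spliceosome-associated protein, had a log2 change of -0.09 (0.685), CTNND2, a neural member of the p120 family, one of -0.015 (0.928) and CTNNA3, the α-catenin of heart and testis, one of 0.0037 (0.986). CTNNA3 lay in the dimmest 20%.

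The genes around the cadherin complex were described from lists by function, beside the 20% of all rows that were called. Among the brighter rows, outside the dimmest 20%, 24.1% were called. Dim genes were unevenly spread over the lists, with 8 of 13 desmosomal genes and 0 of 19 adherens junction partners in the dimmest 20%. Where a list had 0 genes rising in limma, the number higher at an unadjusted p under 0.05 was 0 for desmosomal genes, TCF factors and chromatin regulators, 1 for Wnt targets and mesenchymal markers, 2 for other cadherin superfamily members and 3 for protocadherin partners. Of 19 adherens junction partners 3 rose and 4 fell, with a median change of -0.13. The nectins are immunoglobulin-type adhesion proteins that found new junctions: NECTIN4 rose by 0.90 (adjusted p = 0.000494 in limma) and NECTIN3 fell by 0.76 (0.0116). FLOT1, a scaffold of membrane microdomains, rose by 0.67 (0.000364) and CADM4, an adhesion protein of the same superfamily as the nectins, fell by 0.66 (0.000299). The other called genes of this list were named after their values were seen. VCL rose by 0.55 (0.0146), PTPRM fell by 0.50 (0.0170) and FLOT2 fell by 0.50 (0.00689).

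Of 13 desmosomal genes 0 rose and 2 fell, and the list median was 0.02. These were PKP2, a plaque protein (-0.71, adjusted p = 0.0105 in limma), and JUP, the plakoglobin that also binds classical cadherins (-0.57, 0.0464). The JUP call was lost without any 1 array other than control 11 (adjusted p between 0.0520 and 0.106), which left 1 desmosomal gene. Of 16 other members of the cadherin superfamily 0 rose and 3 fell, with a median of -0.0055. They were FAT4 (-0.97, 0.0176) and DCHS1 (-0.82, 0.00593), a giant cadherin pair that bind each other and act in planar polarity, and CELSR2 (-0.53, 0.0161), a planar polarity cadherin with a receptor tail. Without paraquat 12, 1 gene of this list rose.

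Of 9 repressors of CDH1 transcription 1 rose and 2 fell, with a median of -0.12. SNAI2 (SLUG), which binds E-box sequences, averaged 10.12 ± 0.37 after paraquat and 8.15 ± 0.51 in controls (SD, n = 5 each), a log2 change of 1.97 (adjusted p = 0.000252 in limma). TWIST1 fell by 0.59 (0.00383) and TCF4 by 0.35 (0.0386). The TCF4 call was lost without any 1 of 8 arrays (all except control 19 and paraquat 8, adjusted p between 0.0562 and 0.0959). The 6-letter E-box CACCTG, searched on both strands, was present in 20.6% of all promoter windows. It was in 4 of the 36 members with a window (CDH23, PCDH1, PCDH15 and PCDHB1), of which 0 were called. CDH1 itself had no window and was not searched, nor were the called genes CDH11, CDH24, PCDH10 and PCDH20. The share of 20.6% counts windows, whereas the 36 members are counted as genes and had 55 windows.

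The AP-1 letters TGANTCA, with N for any base, were searched on both strands. They were in 7.71% of all promoter windows and, counted as genes, in 3 of the 36 members with a window: CDH12, CDH18 and CDH2. CDH2 was the only called gene among them, of 9 called genes with a window, and its stretch is shown for that reason. It lies at 1 of the 2 starts that RefSeq gives the gene, beginning 102 bases before it, on the minus strand (GRCh38.p14), with the AP-1 letters in capitals.
CDH2 (rose; chr18:28036715-28036765): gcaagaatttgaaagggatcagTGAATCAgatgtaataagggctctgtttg
The central base, left free in the search, is A in the CDH2 match, T in CDH12 and C in CDH18. The CDH2 stretch thus matches the loosened letters only, and not the stricter AP-1 form with C or G at the centre. A match of letters does not show a bound site, and the overlap of AP-1 letters with other motifs was not examined.

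In the destruction complex, which marks β-catenin for degradation, 1 of 14 genes rose and 2 fell, with a median of -0.02. AXIN1, its scaffold, rose by 0.47 (adjusted p = 0.00447 in limma). AXIN2, a scaffold that is itself a Wnt target, fell to 6.55 ± 0.18 after paraquat, against 7.41 ± 0.22 in controls (SD, n = 5 each; log2 change -0.85, 0.00072), and AMER1 fell by 0.48 (0.00562). The number that rose was 3 without paraquat 12 and 2 without control 11 or paraquat 18, and 3 with array medians subtracted or with quantile normalization.

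Of 12 TCF factors and coactivators 0 rose and 4 fell. All 12 estimates were negative (10 with array medians subtracted or with quantile normalization), where 49.1% of all rows were negative (41.4% with array medians subtracted and 49% with quantile normalization). The list median was -0.32. LEF1, the TCF family member named here, fell by 0.86 (adjusted p = 0.0113 in limma). The corepressors TLE1 and TLE4 fell by 0.72 (0.00016) and 0.36 (0.0175), and BCL9, a coactivator that bridges β-catenin, by 0.69 (0.00654). Because TLE proteins repress and BCL9 activates, the list holds genes of opposite function.

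Of 13 Wnt target genes 0 rose and 4 fell, with a median of -0.16, and 6 of the 13 estimates were positive. CCND1, named after its values were seen, was higher in every paraquat array than in every control. Its log2 change of 0.28 did not pass (adjusted p = 0.0675 in limma). The arrays did not overlap for 1 higher and 2 lower genes of the list, where 16.2% of all rows did not overlap. LEF1 and AXIN2 are in this list as well as in the lists above. LGR5, a receptor that strengthens Wnt signals, fell by 0.69 (adjusted p = 0.00204 in limma) and MYC by 0.47 (0.0135).

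Of 12 protocadherin cytoplasmic partners 0 rose and 1 fell, with a median of -0.03. It was PPP1CA, a catalytic subunit of protein phosphatase 1 (-0.40, adjusted p = 0.0131 in limma). A second gene of the list fell without control 19 or without paraquat 14, and 1 rose without control 11. Of 15 chromatin regulators known to act at the clustered protocadherins 0 rose and 6 fell, with a median of -0.23. CTCF, known to bind the protocadherin promoter element, fell to 9.20 ± 0.13 after paraquat, against 9.64 ± 0.14 in controls (SD, n = 5 each; log2 change -0.44, 0.00737). The cohesin subunit SMC3 fell by 0.60 (0.00673), the histone methyltransferase EHMT2 by 0.71 (0.0121) and the DNA methyltransferase DNMT3B by 0.49 (0.0121).

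**Figure D5:**
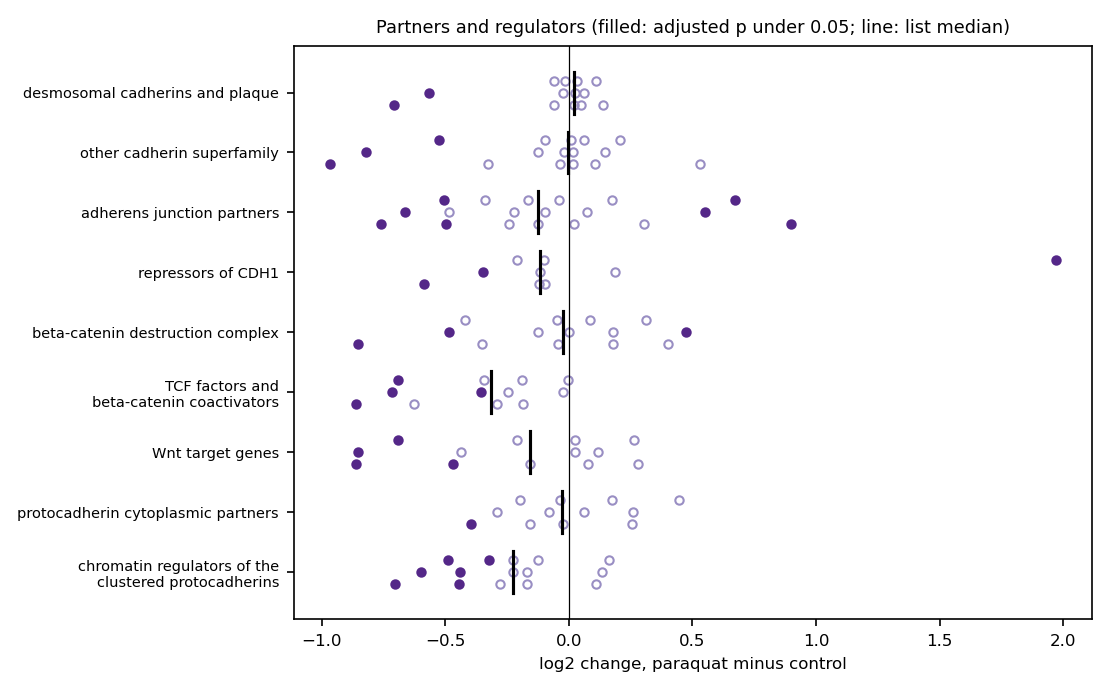
Log2 change, paraquat minus control (horizontal axis), of the measured genes of 9 lists of cadherin partners and regulators, filled where the adjusted p was under 0.05, with a vertical line at each list's median. All 12 TCF factors and coactivators lie at or left of 0 (10 with array medians subtracted or with quantile normalization), and SNAI2 (1.97) lies farthest to the right.

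Cell type markers were set beside these results, and their part in them was not tested. In RNA from whole cultures, fewer cells of a type and less RNA per cell cannot be told apart. Of 9 neuroblast markers 1 rose and 7 fell (4 fell without control 11 and paraquat 12 together). Their summed level, on the linear scale, ranged from 6828 to 7856 in paraquat arrays and from 10549 to 11182 in controls, and 0 of the 9 lay in the dimmest 20%. Of 9 mesenchymal markers 0 rose and 2 fell, LUM and THY1 (1 rose and 4 fell without control 11), with sums of 5367 to 7254 in paraquat arrays and 5960 to 7560 in controls. Their median log2 change was -0.51, 7 estimates were negative and 5 genes were lower at an unadjusted p under 0.05. Linear sums are weighted to the brightest markers. VIM, the brightest mesenchymal marker, and FN1 had positive estimates (0.25 and 0.50), and neither passed. Of 10 epithelial markers 0 passed in limma (2 were higher at an unadjusted p under 0.05, and 1 rose without control 11 or without paraquat 14), with sums of 435 to 731 in paraquat arrays and 381 to 548 in controls. Of 10 endothelial markers ESAM alone rose, a call lost without any 1 of 7 arrays (controls 7, 11, 13 and 17, paraquat 14, 18 and 20), with sums of 347 to 402 in paraquat arrays and 329 to 361 in controls. Of 6 Schwann and glial markers FABP7, in the dimmest 20%, alone fell. Without any 1 of 7 arrays (controls 7, 17 and 19, paraquat 8, 12, 14 and 20) that count was 0, and without control 11 it was 2. The sums were 248 to 332 in paraquat arrays and 247 to 340 in controls. Of 6 leukocyte markers CD68 and CD14 rose, with sums of 674 to 815 in paraquat arrays and 341 to 410 in controls. CD68 alone made up 506 to 596 of the sum in paraquat arrays and 167 to 246 in controls, and the other 5 markers together 168 to 219 in paraquat arrays and 158 to 184 in controls. In the dimmest 20% lay 4 of the 10 epithelial, 4 of the 10 endothelial and 2 of the 6 leukocyte markers, with EPCAM, PECAM1 and PTPRC among them. The other markers of these lists were brighter. The brightest, KRT14, CLDN5 and CD68, had means at percentiles 67.5, 52.2 and 74.1 of all rows.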

How the data were processed

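The submitters' processing notes name RMA for the deposited values, which background-corrects, normalizes and summarises the probes of a transcript cluster; neither software, version nor genome build is given in the sources used. The deposited values were taken as log2 from their range (1.07 to 14.37). Array medians ran from 6.78 to 6.93. The platform annotation gave 1 symbol for 14432 rows, several for 2408 and none for 5171. All 51 members matched RefSeq (GRCh38.p14) by gene identifier, which served for names, promoter sequences and the order of the β cluster. Where a gene had several rows, the one with the highest mean was to be kept.

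Paraquat was compared with control on the values as deposited, without filter, with limma 3.58.1 in R 4.3.3 (lmFit and eBayes, group as the only term, 8 residual and 3.06 prior degrees of freedom, two-sided, Benjamini-Hochberg over all 22011 rows). This fit gives every adjusted p in the text. The procedure was tested on simulated data. Precision is limited by the number of arrays, with a median standard error of 0.13. Control 11 had the widest residuals (SD 0.358, against 0.206 to 0.291 in the other arrays).

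The text names every member that passed, every catenin, and the 2 brightest non-passing genes of each other subclass. Of each function list it names up to 4 passing genes with the largest changes, and in addition VCL, PTPRM, FLOT2 and, not passing, CCND1. Members and lists were chosen with earlier results of these data known, so no list was tested as a set. Marker sums add linear values. Tables were handled with pandas 2.3.3 and numpy 2.4.6, figures drawn with matplotlib 3.10.9.

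Alternatives were subtracting array medians, quantile normalization, leaving out the dimmest 33.3% of rows, array weights, a trended robust prior, a minimum fold of 1.2, and leaving out arrays; a block of adjacent array numbers was added after the data were seen. Promoter entries of 15 members and protein sequences were not used here.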

Additional observations from a re-analysis of the deposited data

Results flagged for a closer look

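Within each group of 5 arrays, 76 sets of values of the 38 named members were examined for an array far from the others by Dixon's ratio, and 5 were marked, where chance marks about 1 in 20 sets. CTNNA1 read 10.3 in control 19, against 9.52 to 9.60 in the other controls. CTNNAL1 read 7.71 in control 11, against 6.77 to 6.93. PCDH9 read 5.76 in control 11, against 5.14 to 5.29. CDH16 read 5.07 in control 13, against 4.73 to 4.79. PCDH12 read 4.51 in control 7, against 4.66 to 4.69. All 5 were control arrays, 2 of them control 11, and 0 of the 5 genes passed limma's test in the comparison.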

How the results depend on the processing

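Of the 13 called members, CDH8, CDH20, PCDH10 and PCDH20 kept their call in every setting in which they were tested (CDH8 and PCDH20 are not in the fit without the dimmest 33.3% of rows), 9 lost it in at least 1 of 18 settings and 0 changed direction. CDH2, CTNNA2, CTNNBIP1, PCDHB7 and PCDHB9 lost it only when the test was against a minimum fold of 1.2. That test left 735 rows up and 913 down, with 2 and 2 members, 1 and 1 classical cadherins, 1 and 1 protocadherins and 0 catenins. With array medians subtracted 1 classical cadherin fell and 4 protocadherins rose, and with quantile normalization 1 classical cadherin fell. Array weights gave 2608 rows up and 3588 down. With 1 array left out, rows up ranged from 1480 to 2066 and down from 1916 to 2642, members up from 4 to 6 and down from 5 to 9, classical cadherins up from 2 to 3 and down from 1 to 2, protocadherins up from 2 to 3 and down from 2 to 6, and catenins down was 2 throughout. Only 5 members fell without control 7 or 13 or paraquat 12, 18 or 20. Estimates near 0 changed sign, and the cause was not tested: CDH15 was 0.017 and PCDH1 0.041 with medians subtracted, CTNND2 0.033 with medians subtracted and 0.022 with array weights, and CDH16 -0.0057 with array weights and -0.0021 without control 11 and paraquat 12. With quantile normalization CDH16 was -0.051, CDH23 -0.0043, CTNNA3 -0.014 and CTNNB1 0.00014. With 1 array left out CDH15 ranged from -0.072 to 0.023, CDH16 from -0.021 to 0.067, CDH23 from -0.015 to 0.088, CTNNA3 from -0.051 to 0.057, CTNNB1 from -0.12 to 0.0057, CTNND2 from -0.039 to 0.011, PCDH1 from -0.051 to 0.022 and PCDHB6 from -0.36 to 0.067. None of these 8 genes passed in any setting. Averaging all rows of a gene was not run, since each member had 1 row. The groups share no replicate number and the labels state no pairing. A replicate block of adjacent numbers (7 with 8, and so on), chosen after seeing the data, gave 2226 rows up and 3153 down and 6 members up and 9 down: all 13 calls held, and CTNNAL1 (adjusted p = 0.0272 in limma) and PCDHB15 (0.0141) were added. The deviations of adjacent arrays from their group means correlated at 0.09 to 0.46 across rows, and 3 of 5 paraquat arrays correlated best with their adjacent control. How far low signal limits the dim rows was not tested.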
